A study of Mus musculus with 28 samples.

Results

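The label-retaining fraction of the mouse thyroid gland was compared between 9 and 6 months of age. All libraries of the series came from H2B-GFP mice, which carry a histone H2B joined to green fluorescent protein, and the cells were freshly sorted by fluorescence. The comparison used the 7 libraries titled as GFP+ thyroid at these ages, 3 at 9 months and 4 at 6 months, out of 22 thyroid libraries and 28 libraries in all. The GFP- thyroid fraction of the same ages, 3 libraries at 9 months and 4 at 6 months, served as the comparison group. The labels give no treatment and no sex, and they name neither the promoter that drives the transgene, nor when labelling was stopped, nor whether each replicate is a separate mouse or a pool. The p-values therefore rest on a spread that may be technical. That spread was estimated over the 22 thyroid libraries and shared between genes, wholly so for the median gene, and not taken from the 7 libraries alone.

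Histone-bound GFP is shared between daughter cells at every division, so in a label-retention experiment the cells that stay bright are those that have divided little since the label was last made. The thyroid is a slowly renewing gland. Its follicular cells make thyroglobulin, the large protein on which thyroid hormone is built, and they lie among fenestrated capillaries, pericytes, fibroblasts and the calcitonin-producing C cells, with the parathyroid glands attached. The series title places quiescent cells and the upkeep of the gland at its centre, and the comparison asks how the label-retaining fraction differed at the later age.

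The libraries were shallow. Those at 9 months held 65112, 170230 and 85999 reads in genes, and those at 6 months 85074, 76308, 195513 and 507. Replicate 4 at 6 months stood apart from the others: 166 genes were detected in it against 6890 to 10084 in the other 6, and 85.8% of its counted reads lay outside annotated genes against 22.2% to 31.5%. A single read was worth 1972 CPM (reads of a gene per 1000000 reads in genes) there, so a gene with no read in it could lie anywhere up to 5917 CPM, which covers counting error only. Overlap between the ages was therefore judged over the 6 libraries with at least 10000 reads. Messengers of several cell types were present in the sorted GFP+ cells: those of fibroblasts (Dcn, 6547 to 11744 CPM in the 6 deeper libraries), parathyroid (Pth, 8349 to 60891 CPM), follicular cells (Tg, 335 to 3421 CPM) and endothelium (Pecam1, 23.3 to 92.1 CPM). Of 12 lymphocyte genes none had a read in the 7 libraries, and 5 of 16 macrophage and myeloid genes had any. In bulk samples such as these, fewer cells of a type and less RNA per cell cannot be told apart.

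Of 1900 genes tested, 9 were higher at 9 months (0.474%) and 0 were lower (0.0%), by the quasi-likelihood test of edgeR at a Benjamini-Hochberg adjusted p under 0.05. The median log2 fold change of all tested genes was 0.10. The 9 genes were Krt6a, Sfn, Krt4, Perp, Calml3, Adh7, Cbr2, Aqp3 and Gsta4, and 4 of them were in the list of basal and squamous epithelial genes. At an unadjusted p under 0.05, 44 genes were higher (2.32%) and 49 lower (2.58%). Over the 6 deeper libraries, 107 genes (5.63%) had every value at 9 months above every value at 6 months, and 111 (5.84%) had every value below. DESeq2 called 1 gene, Calml3. Scaling by library size alone called 1 gene higher and 1 lower.

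**Figure D1:**
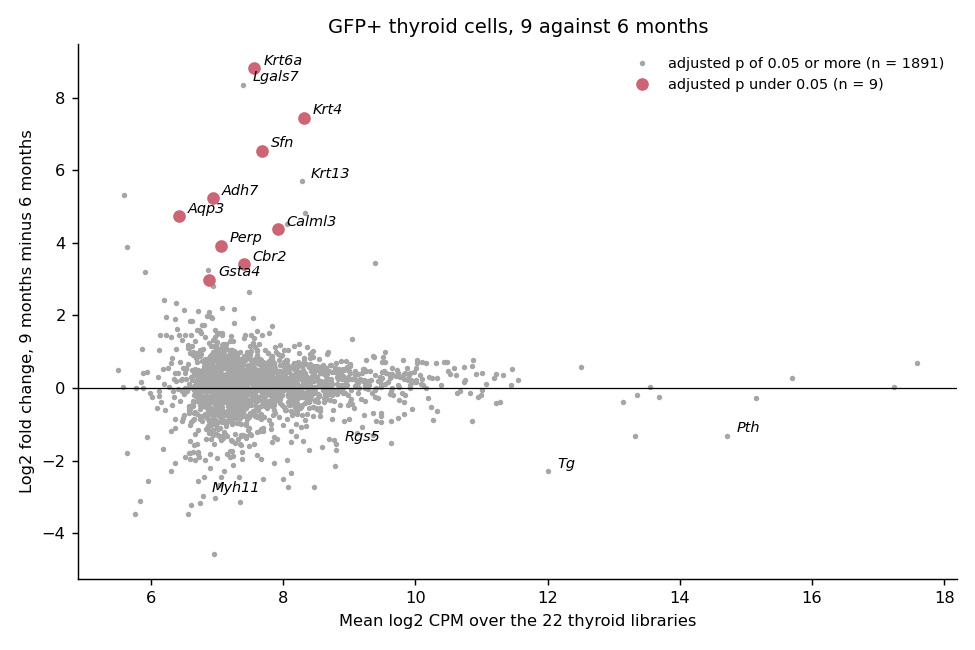
Log2 fold change of 9 over 6 months in GFP+ thyroid cells (vertical axis) against mean log2 CPM over the 22 thyroid libraries (horizontal axis), 1 point per tested gene, with the 9 genes at an adjusted p under 0.05 as large red points. The called genes all lie above 2.9 on the vertical axis, while Tg and Pth, which are among the more abundant genes, lie at −2.30 and −1.31 and are not called.

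Stratified epithelia such as the lining of the oesophagus and the epidermis are built on a basal layer with keratins 5, 14 and 15, and cells above it switch to other keratins, among them keratins 4 and 13 in mucosa and keratin 6a in injured or quickly renewing layers. The list of basal and squamous genes held 13 members, all of them with reads in the 7 libraries. Of these, 7 passed the filter on low counts and were tested. All 7 tested members had an unadjusted p under 0.05 and a positive fold change, against 2.32% of all genes, and 4 passed the adjusted test, against 0.474%. The summed level of the 13 genes was 16740.4, 2972 and 128 CPM in replicates 1, 2 and 3 at 9 months. At 6 months it was 141, 157, 128 and 0 CPM. Replicates 1 and 2 at 9 months were thus above each of the 3 deeper libraries at 6 months, and replicate 3 was at the level of those 3. Some members passed the filter on low counts through libraries in which they were high. These counts are therefore a description, and the shares of all genes beside them are no test. In GFP+ cells Krt6a and Lgals7 had no read at 6 months, and Krt4 and Sfn 2 each. Few reads also make a high CPM in a shallow library: Krt6a lay at 413 CPM in GFP- 6-month replicate 2, from 2 reads of 4845. None of the 9 called genes was tested with the stricter filter or in the fit of the compared groups alone. The other 6 members did not pass the filter on low counts, and their level in GFP+ cells alone did not decide this. Untested Krt15 had 184 reads at 9 months and 2 at 6 months, while tested Perp had 84 and 8. In GFP- 6-month replicate 2, where few reads make a high CPM, each of the 7 tested members had 1 to 3 reads. The 6 untested members had 0 reads there.

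Krt6a had no read in the 4 libraries at 6 months and lay at 1812, 435 and 11.6 CPM at 9 months. Its log2 fold change was 8.82 (SE 1.28, adjusted p = 1.72e-06), and against a limit of 3 reads over the younger group the pooled reads were at least 71.6-fold higher. That bound was 32.4-fold without 6-month replicate 3 and 34.9-fold without 9-month replicate 1. It was the only called gene whose ages did not overlap in the deeper libraries, by 1 read in replicate 3 at 9 months. Krt6a has a close paralogue, Krt6b, and how reads that match both were counted is not given in the sources used here. Krt4, the mucosal keratin, lay at 3532, 652 and 23.3 CPM at 9 months and at 23.5, 0, 0 and 0 CPM at 6 months. The log2 fold change of Krt4 was 7.45 (SE 1.47, adjusted p = 0.0113), and the ratio of its pooled reads, 343 against 2, was 191 with a 95% counting interval of 52.4 to 1581. Such intervals, here and below, cover counting error in pooled reads only and leave out the spread between libraries. Sfn, which encodes the stratifin (14-3-3 sigma) protein of squamous cells, lay at 2012, 206 and 11.6 CPM against 0, 13.1, 5.11 and 0 CPM. Its log2 fold change was 6.54 (SE 0.986, adjusted p = 1.54e-06), with 167 reads against 2 and a ratio of 92.9 (25.3 to 773). Perp, a desmosome component of stratified epithelium, lay at 968, 112 and 23.3 CPM against 11.8, 0, 35.8 and 0 CPM, a log2 fold change of 3.93 (SE 0.821, adjusted p = 0.000672). In each of these genes replicate 1 at 9 months was the highest of the 6 deeper libraries and replicate 2 the second.

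**Figure D2:**
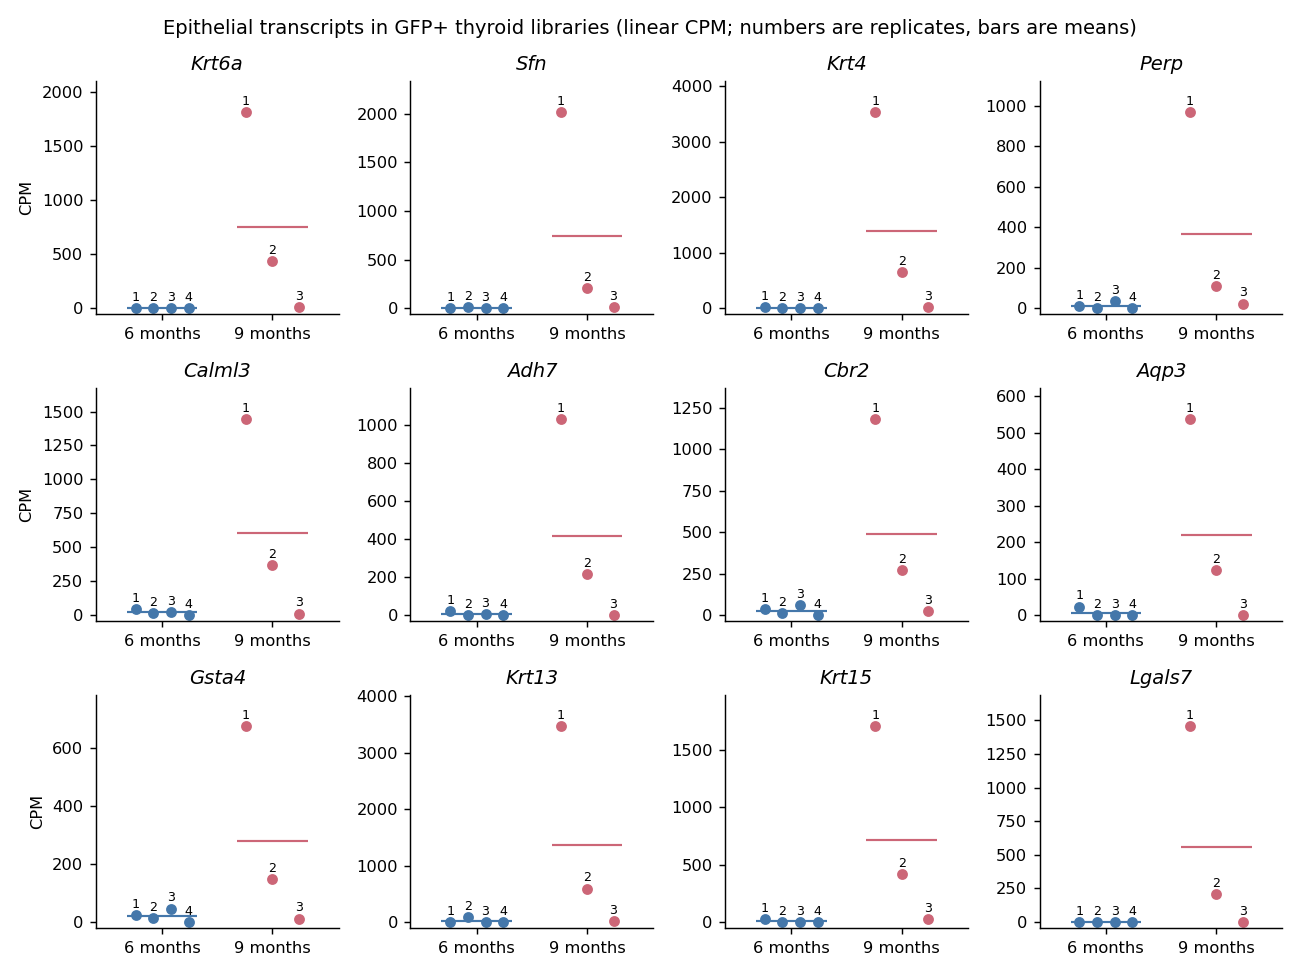
CPM (linear vertical axis, a separate scale in each panel) of 12 epithelial genes in the GFP+ libraries at 6 months (blue) and 9 months (red), with 1 point per library, the replicate number beside it and the mean as a bar. Among the 6 deeper libraries replicate 1 at 9 months is highest and replicate 2 second in all 12 panels, while replicate 3 lies near 0 with those at 6 months. Replicate 4 at 6 months, with 507 reads, allows up to 5917 CPM for a gene at 0.

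The other 9 members of the list did not pass the test or the filter before it, and most had nearly all of their reads in the same 2 libraries. Krt13, the partner of keratin 4, lay at 3471, 593 and 11.6 CPM at 9 months and at 0, 91.7, 0 and 0 CPM at 6 months, with a log2 fold change of 5.70 (SE 1.81, adjusted p = 0.526). Lgals7, which encodes the epithelial lectin galectin-7, had 130 reads at 9 months, all in replicates 1 and 2, and none at 6 months (adjusted p = 0.615). Of 16 alternatives, Krt13 was called in 4 and Lgals7 in 3, both of them with no filter and without 9-month replicate 3. Dsp, the desmosomal plaque protein desmoplakin, lay at 614, 35.2 and 23.3 CPM against 47, 52.4, 56.3 and 0 CPM (adjusted p = 0.551), so only replicate 1 was high. Among the members that did not pass the filter, basal keratin Krt15 had 184 reads at 9 months against 2 at 6 months, a ratio of 102 (27.9 to 851). Basal keratin Krt5 had 70 against 7 reads, and Krt14 30 against 2. Ly6d had 24 reads against none and Krt17 4 against none. With no filter Krt15 and Ly6d were called, and without 9-month replicate 3 Krt15 and Krt5 were. Trp63, the transcription factor that marks basal cells, had 2 reads at 9 months, 1 in each of replicates 1 and 2, and none at 6 months.

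The 5 called genes outside the list showed the same order of the 6 deeper libraries. Calml3, a calmodulin-like protein of epithelial cells, lay at 1444, 370.1 and 11.6 CPM at 9 months and at 47, 13.1, 20.5 and 0 CPM at 6 months, with a log2 fold change of 4.37 (SE 0.739, adjusted p = 2.17e-06). Adh7, an alcohol and retinol dehydrogenase of upper digestive epithelium, lay at 1029, 217 and 0 CPM against 23.5, 0, 5.11 and 0 CPM. The log2 fold change of Adh7 was 5.23 (SE 0.933, adjusted p = 9.92e-06), and its pooled ratio, from 104 reads against 3, was 38.6 (12.8 to 190.0). Aqp3, a water and glycerol channel of basal epithelial cells, lay at 538, 123 and 0 CPM against 23.5, 0, 0 and 0 CPM, a log2 fold change of 4.74 (SE 1.10, adjusted p = 0.00457) and a pooled ratio of 31.1 (8.23 to 263). Cbr2, a carbonyl reductase, lay at 1183, 270.2 and 23.3 CPM against 35.3, 13.1, 61.4 and 0 CPM (log2 fold change 3.41, SE 0.686, adjusted p = 0.000262). Gsta4, a glutathione transferase that acts on lipid peroxidation products, lay at 676, 147 and 11.6 CPM against 23.5, 13.1, 46 and 0 CPM (log2 fold change 2.99, SE 0.803, adjusted p = 0.0425). In all 5 genes replicate 3 at 9 months lay within or below the range of the 3 deeper younger libraries.

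The RefSeq table of promoter windows (GRCm38.p6, 250 bases before to 50 after the start) held 4 of the 9 called genes. Those of Adh7 (chr3:138217523-138217822, plus strand) and Aqp3 (chr4:41098134-41098433, minus strand) are shown because they are called together and hold a match to a searched motif, written here in capitals, 5′ to 3′ along the gene.
Adh7: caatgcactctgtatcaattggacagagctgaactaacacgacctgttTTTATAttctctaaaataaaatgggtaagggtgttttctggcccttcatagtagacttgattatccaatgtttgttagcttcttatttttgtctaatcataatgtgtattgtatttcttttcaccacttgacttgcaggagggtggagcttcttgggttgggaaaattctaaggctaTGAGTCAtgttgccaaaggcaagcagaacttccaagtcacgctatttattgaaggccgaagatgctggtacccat
Aqp3: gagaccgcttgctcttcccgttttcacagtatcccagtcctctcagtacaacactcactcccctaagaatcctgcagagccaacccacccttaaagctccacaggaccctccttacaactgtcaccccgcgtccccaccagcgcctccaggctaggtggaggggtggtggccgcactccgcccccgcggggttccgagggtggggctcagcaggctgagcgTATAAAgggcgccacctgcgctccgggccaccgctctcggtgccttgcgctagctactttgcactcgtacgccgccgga
The motifs searched on both strands were TATAAA, the core of the TATA box, and TGANTCA, the AP-1 site, and they do not overlap each other. In Aqp3 the TATA match starts at −29 from the start. In Adh7 the match to TATAAA is on the other strand, reads TTTATA here and starts at −202, and the AP-1 match starts at −25. The windows of Sfn and Cbr2 hold neither. TATAAA is found in 13.6% of the 32851 windows of the table and TGANTCA in 7.8%. These matches describe the sequence only, and the windows come from another build than the read counts.

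The calls rested on replicate 1 at 9 months and on the shallow libraries of the fit. Without replicate 1 at 9 months 2 of the 9 genes were called, Krt4 and Krt6a, while 16 genes were called without replicate 2 there and 25 without replicate 3, with all 9 among them each time. Leaving out 6-month replicates 1, 2, 3 and 4 in turn left 7, 6, 7 and 7 of the 9 called: Gsta4 was lost each time, Krt4 without replicate 1, 2 or 4 and Aqp3 without replicate 2 or 3. Without the libraries under 10000 reads 2 genes were called, Adh7 and Tg, and 0 of the 9 squamous members then tested (Krt6a at a log2 fold change of 9.20, adjusted p = 0.83), although the fold changes of the 4 called members kept their sign in every alternative in which they were tested.

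Some genes of other epithelia were high in the same libraries. Cyp2f2, a cytochrome P450 abundant in airway club cells, lay at 2795, 540.4 and 23.3 CPM at 9 months and at 106, 26.2, 0 and 0 CPM at 6 months (log2 fold change 4.83, SE 1.50, adjusted p = 0.365). It made up nearly all of the airway list, whose summed level was 2872, 540.4 and 23.3 CPM at 9 months and 0 to 106 CPM at 6 months, with 5 of 10 genes detected. The defining club cell secretoglobins Scgb1a1 and Scgb3a2 had 0 reads in the 7 libraries, and the ciliated cell factor Foxj1 had 2 reads, both at 6 months. The salivary acinar list, with 6 of 15 genes detected, summed to 369, 64.6 and 0 CPM at 9 months and to 0 to 40.9 CPM at 6 months. Most of its reads were of Aqp5, 27 at 9 months against 9 at 6 months. Oit1 had 4 against 0, Lpo 2 against 1, Amy1 2 against 2, and Bpifa2 and Dcpp3 0 against 1 each. Ltf, the secreted iron-binding protein lactoferrin, lay at 476, 82.2 and 0 CPM against 23.5, 39.3, 0 and 0 CPM (adjusted p = 0.128). Gsto1, a glutathione transferase chosen after its values were seen, lay at 5898, 1557 and 93 CPM at 9 months and at 494, 275, 5.11 and 0 CPM at 6 months (adjusted p = 0.921). Of 16 alternatives, Cyp2f2 was called in 4 and Ltf in 2. Gsto1 was called with the replicate block and without 9-month replicate 3. The part of other epithelial cells in the squamous difference was not tested.

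Genes of thyroid hormone synthesis had lower values at 9 months without passing the adjusted test. Of 15 list members 14 were detected and 5 tested, and all 5 had negative fold changes with a median of −2.30. None was called (background 0.0% lower), 2 had an unadjusted p under 0.05 and 2 did not overlap between the ages, against 5.84% of all genes. The summed level of the list was 737, 569.8 and 581 CPM at 9 months and 4008, 1939.5, 2644 and 0 CPM at 6 months. Each library at 9 months was thus below each of the 3 deeper libraries at 6 months.

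Thyroglobulin, Tg, carried most of that sum. It lay at 491, 335 and 407 CPM at 9 months and at 3421, 1586, 2368 and 0 CPM at 6 months, 124 reads against 875. The 3 older libraries lay close together and below every deeper younger one. The log2 fold change of Tg was −2.30 (SE 0.899, unadjusted p = 0.0107, adjusted p = 0.532). Tg passed the adjusted test under 5 alternatives, among them the fit without libraries under 10000 reads (−2.65, adjusted p = 5.3e-06), with log2 fold changes of −2.68 to −1.97 over the alternatives. It was not called when only 6-month replicate 4, where Tg had 0 reads against a limit of 5917 CPM, was left out (−2.63, adjusted p = 0.0704). Iyd, which recovers iodide from unused iodotyrosines, lay at 0, 41.1 and 11.6 CPM against 118, 39.3, 40.9 and 0 CPM (log2 fold change −1.40, adjusted p = 1). Dio1, an activating deiodinase, had 1 read against 8. Duox1, an oxidase that supplies hydrogen peroxide for hormone synthesis, had 10 reads at 9 months against 6, and its maturation factor Duoxa1 had 9 against 4, the other way from Tg. The iodide transporter Slc5a5 and the receptor Tshr had 1 read each over the 7 libraries. Pax8, a thyroid transcription factor, had 0 reads against 6, and Zbtb20 lay at 799, 1075 and 1326 CPM against 940.4, 891, 439.9 and 0 CPM (log2 fold change 0.70, SE 0.650, adjusted p = 1), with the ages overlapping.

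Contractile and mural genes, which mark the pericytes and smooth muscle cells around vessels, also had lower values at 9 months without passing the adjusted test. Of 14 list members, all detected, 7 were tested. All 7 had negative fold changes, with a median of −1.56, and 5 had an unadjusted p under 0.05. The ages did not overlap in 5 of them, against 5.84% of all genes. The summed level was 753, 740.2 and 698 CPM at 9 months and 1963, 2975, 1212 and 0 CPM at 6 months, so the older libraries lay within a narrow range below the 3 deeper younger ones.

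Myh11, the smooth muscle myosin heavy chain, lay at 15.4, 17.6 and 0 CPM at 9 months and at 82.3, 157, 87 and 0 CPM at 6 months (log2 fold change −2.97, SE 0.959, adjusted p = 0.189). Mylk, the kinase that activates that myosin, lay at 46.1, 58.7 and 93 CPM against 423, 406, 118 and 0 CPM (−2.07, SE 0.669, adjusted p = 0.189). Rgs5, a pericyte signalling regulator, lay at 215, 141 and 151 CPM against 599, 721, 327 and 0 CPM (−1.56, SE 0.645, adjusted p = 0.615). Acta2, smooth muscle actin, lay at 123, 206 and 93 CPM against 247, 812, 281 and 0 CPM (−1.48, SE 0.627, adjusted p = 0.644). Over the deeper libraries all 4 had every older value below every younger one. Rgs5 was called under the stricter filter (adjusted p = 0.0376) and Mylk in the fit of the compared groups alone (adjusted p = 0.0309), where fewer genes were tested. Tagln, a further contractile gene outside the rule for named genes, had 6 reads against 30. Abcc9, a channel subunit of pericytes, had 57 reads against 63 and a log2 fold change of −0.27.

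**Figure D3:**
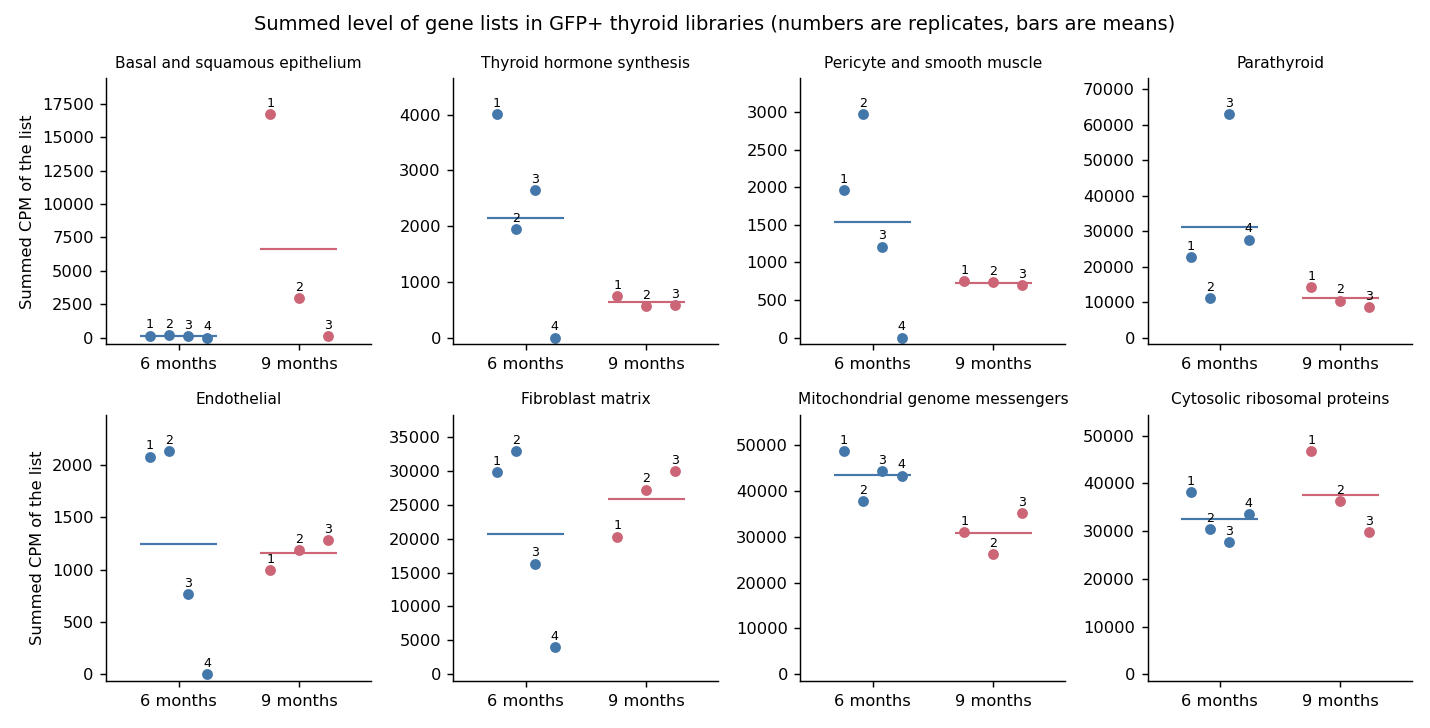
Summed CPM of 8 gene lists (linear vertical axis, a separate scale in each panel) in the GFP+ libraries at 6 months (blue) and 9 months (red), with 1 point per library, the replicate number beside it and the mean as a bar. The squamous panel has 2 high libraries at 9 months, the thyroid hormone and pericyte panels have tight older libraries below replicates 1 to 3 at 6 months, and 6-month replicate 4 (507 reads) lies at 0 in 4 panels.

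Parathyroid messengers, which come from the glands attached to the thyroid, had their highest level in 6-month replicate 3. Pth, parathyroid hormone, lay at 21887, 10589, 60891 and 25641 CPM at 6 months and at 13853, 9969 and 8349 CPM at 9 months. Replicate 1 at 9 months was above replicate 2 at 6 months, so the ages overlapped, and the log2 fold change of −1.31 (SE 0.851, adjusted p = 1) did not pass. That fold change ran from −1.76 to −0.07 over the alternatives. Gata3, a transcription factor of parathyroid cells, lay at 61.4, 23.5 and 81.4 CPM against 188, 78.6, 486 and 0 CPM (−2.33, SE 0.712, adjusted p = 0.155, and −1.17 without 6-month replicate 3). All 4 tested genes of the list were negative, with a median of −1.51 that was −0.49 without 6-month replicate 3. The parathyroid sum of 62988 CPM in that replicate stood against 8651 to 27613 CPM in the other 6 libraries. Chga, a secretory granule protein of endocrine cells, lay at 4055, 3625 and 3733 CPM against 8005, 5268, 20996 and 0 CPM (−1.33, SE 0.865, adjusted p = 1). The log2 fold change of Chga ran from −1.80 to −0.20 over the alternatives. Calca, which encodes calcitonin of the C cells, lay at 15.4, 194 and 209 CPM against 35.3, 91.7, 128 and 1972 CPM, 1 read in the last (0.55, SE 0.863, adjusted p = 1), and the ages overlapped.

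The remaining genes with the lowest p among those lower at 9 months were each below the test. Spp1, the matrix phosphoprotein osteopontin, lay at 169, 94 and 81.4 CPM against 329, 209.7, 946 and 0 CPM (−2.14, SE 0.668, adjusted p = 0.174) and was called in the fit of the compared groups alone (adjusted p = 0.00345). Of its 229 reads at 6 months 185 came from replicate 3, and without that library its log2 fold change was −1.04 (adjusted p = 0.999). Mcam, an adhesion molecule of endothelium and mural cells, lay at 15.4, 29.4 and 0 CPM against 129, 223, 61.4 and 0 CPM (−2.74, SE 0.843, adjusted p = 0.159). Hspa2, a heat shock protein 70 family member, had 9 reads against 66, of which 56 came from 6-month replicate 3. Without that library the 9 reads stood against 10, a ratio of 6 over 9 months of 2.21 (0.805 to 6.13). Smco4 had 3 reads against 34. Grp, which encodes gastrin-releasing peptide, had 2 reads against 25, a ratio of 6 over 9 months of 11.2. Plscr2, a phospholipid scramblase family member, had no read at 9 months and 11 at 6 months, at least 3.3-fold lower against a limit of 3 reads and at least 1.55-fold lower without 9-month replicate 2. Kansl1l lay at 0, 88.1 and 58.1 CPM against 129, 157, 363 and 0 CPM (−1.98, adjusted p = 0.325), and its pooled ratio of 6 over 9 months was 4.23, or 2.28 without 6-month replicate 3.

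Messengers of the mitochondrial genome encode subunits of the respiratory chain. Their summed level was 31100.3, 26206 and 35221 CPM at 9 months and 48805, 37886, 44457 and 43392 CPM at 6 months, so the older libraries were below the deeper younger ones. The last value came from 22 reads of 507, and that library is left out of this order. Of 7 tested genes none was called, and 6 did not overlap in the downward direction, against 5.84% of all genes. Mt-Nd4 lay at 8816, 6151 and 9593 CPM against 13753, 9868, 11457 and 21696 CPM (log2 fold change −0.24, SE 0.833, adjusted p = 1). The fitted median of the list, −0.39, was smaller than the gap in CPM, was −0.66 with scaling by library size alone, and stayed below 0 in every alternative. Of 34 tested nuclear genes of the same chain 13 were positive and 21 negative, with a median of −0.15 and none called. Of 75 cytosolic ribosomal protein genes 58 were positive, with a median of 0.29 and none called, while 1098 of all 1900 genes were positive, with a median of 0.10. In the list 7 did not overlap in the upward direction, against 5.63% of all genes. Their sums, 46827, 36257 and 29768 CPM against 38249, 30495, 27686 and 33531 CPM, overlapped, with 9-month replicate 1 highest.

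Fibroblast genes, which make collagens and the matrix around the follicles, showed no called difference. The median log2 fold change was 0.07 over 12 collagen chains, 0.16 over 25 matrix genes and 0.42 over 17 surface and identity genes. Col1a1, the main chain of type I collagen, lay at 246, 435 and 756 CPM against 517, 839, 256 and 0 CPM, with a log2 fold change of 0.01 and a 95% interval of −1.15 to 1.18. Dcn, the proteoglycan decorin, lay at 8985, 11009 and 11744 CPM against 10661, 10169, 6547 and 0 CPM (0.57, SE 0.824). Pdgfra, the receptor that marks fibroblasts, lay at 369, 358 and 523 CPM against 399.7, 301.4, 107 and 0 CPM (0.77, with an interval of −0.396 to 1.94). The ages overlapped in all 3 genes, and these intervals leave room for changes of more than 2-fold.

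Endothelial genes had a median of −0.53, with 15 of 19 tested members negative and none called, and that median was at 0.0 in the fit of the compared groups alone, where 3 members were tested. Pecam1, the junction protein of all endothelium, lay at 92.1, 35.2 and 23.3 CPM against 70.5, 78.6, 51.1 and 0 CPM (−0.48, SE 0.785). Flt1, a VEGF receptor, lay at 123, 88.1 and 23.3 CPM against 129, 105, 40.9 and 0 CPM (−0.13, SE 0.846). Simple epithelial genes were negative in 6 of 6 tested members, with a median of −0.89 and none called, and that median was −0.15 without 6-month replicate 3. The list summed to 1290, 529 and 163 CPM at 9 months against 1011, 393, 1637 and 0 CPM, so the ages overlapped. Of the members not tested, Krt7 (17 reads against 4), Cldn4 (18 against 10) and Krt19 (1 against 0) had more reads at 9 months. Krt8 (2 against 11), Krt18 (8 against 12) and Cldn3 (1 against 4) had fewer. Epcam lay at 230.4, 76.4 and 34.9 CPM against 212, 52.4, 568 and 0 CPM, so the ages overlapped.

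Genes of cell cycle, isolation response and inflammation showed no called difference or were undetected. Cdkn1a, the cell cycle inhibitor p21, lay at 338, 282 and 326 CPM against 165, 642, 209.7 and 0 CPM, a log2 fold change of −0.0004. Mki67, the proliferation marker, had 0 reads in the 7 libraries, and of 17 proliferation genes 8 were detected and none passed the filter. Their summed level was 215, 182 and 23.3 CPM at 9 months and 0 to 87 CPM at 6 months, with replicates 1 and 2 at 9 months again highest. Fos, an immediate early gene that responds to cell isolation, lay at 968, 1509.7 and 1395 CPM against 2292, 1389, 1831 and 0 CPM (−0.24, SE 0.769). Over 22 immediate early genes the median was −0.03, and over 17 inflammation genes 0.16, with none called in either list. Il6 lay at 307.2, 341 and 337 CPM against 399.7, 629, 102 and 0 CPM (−0.02, SE 0.581).

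In the GFP- fraction 0 of 1900 genes passed the same test between 9 and 6 months by edgeR, 0 by DESeq2, and 157 had an unadjusted p under 0.05 in edgeR. With scaling by library size alone 27 genes passed and without the libraries under 10000 reads 48, of which 25 and 46 were higher. The squamous list summed to 2889, 498 and 253 CPM there at 9 months and to 268, 3096, 57.4 and 129.9 CPM at 6 months. The values of 2889 and 3096 CPM came from 17 and 15 reads in libraries of 5884 and 4845 reads. The GFP- ages overlapped, and Krt6a (log2 fold change 2.13, SE 1.34, adjusted p = 0.787) did not pass. Tg lay at 679.8, 5362 and 9032 CPM at 9 months and at 1858 to 7039.7 CPM at 6 months (0.55), and the pericyte list had a median of 0.82. Pth and Gata3 lay on the same side in both fractions, at −1.32 and −2.27 in GFP- and −1.31 and −2.33 in GFP+ cells. Over the alternatives the GFP+ values came as near to 0 as −0.07 for Pth and −1.17 for Gata3. The parathyroid sums of 6-month replicates 1, 2 and 3 were 27321, 18576 and 70687 CPM in the GFP- libraries, beside 22698, 11034 and 62988 CPM in those of GFP+ cells. Replicate 3 was highest in both fractions, and the labels do not say whether fractions of 1 age and number came from the same mice.

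The difference between the 2 fractions in their change with age was tested as an interaction, and 3 of 1900 genes passed (0.158%). Calml3 had a log2 fold change of 4.37 in the GFP+ and −0.61 in the GFP- fraction (difference 4.98, SE 1.09, adjusted p = 0.00691). It lay at 1444, 370.1 and 11.6 CPM in GFP+ cells at 9 months against 0, 83 and 76.8 CPM in the GFP- libraries, which lay at 26 to 1032 CPM at 6 months. The 1032 CPM came from 5 reads in a library of 4845 reads, and the 0 in 9-month GFP- replicate 1 allows up to 510 CPM. Cbr2 had a log2 fold change of 3.41 in GFP+ and −1.08 in GFP- cells (difference 4.49, SE 1.10, adjusted p = 0.0278), with GFP- values of 0, 30.2 and 38.4 CPM at 9 months and 33.5, 413, 76.5 and 26 CPM at 6 months. Its 413 CPM came from 2 reads in that same shallow 6-month library. Myh11 had the opposite direction in the fractions, with 170.0, 113 and 69.1 CPM at 9 months and 0, 0, 9.57 and 0 CPM at 6 months in GFP- cells (difference −6.58, SE 1.47, adjusted p = 0.00691). The 170.0 CPM came from 1 read in a library of 5884 reads. A count of 0 in 6-month GFP- replicates 1 and 2 allows up to 101 and 619 CPM. For the other called genes and for Tg the difference between the fractions did not pass. DESeq2, the fit with no filter and the fit with replicate numbers as a block called 0 genes in this test. Without the libraries under 10000 reads Calml3 (adjusted p = 0.666) and Cbr2 (0.506) lost the call, as they did with scaling by library size alone (0.442 and 0.213), while Myh11 kept it (0.0044 and 0.00453). Calml3 also lost this call without 9-month GFP+ replicate 1 (adjusted p = 0.732) or 9-month GFP- replicate 2 or 3, Myh11 without 6-month GFP- replicate 4 or 9-month GFP- replicate 2, and Cbr2 without any 1 of 8 of the 13 libraries left out in turn.

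**Figure D4:**
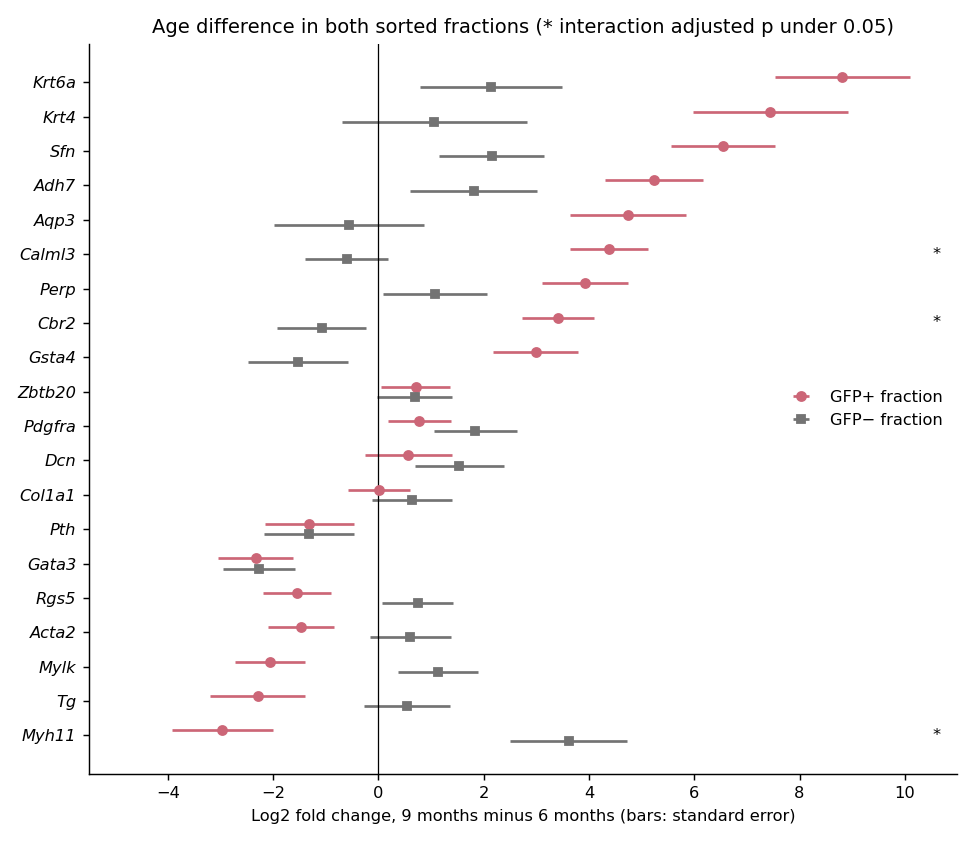
Log2 fold change of 9 over 6 months (horizontal axis, bars are the standard error) of 20 genes in GFP+ (red circles) and GFP- (grey squares) thyroid cells, with a star where the interaction passes an adjusted p of 0.05. Calml3, Cbr2 and Myh11 carry the star; Pth and Gata3 lie at nearly the same value in both fractions, while Rgs5, Acta2, Mylk and Tg lie below 0 in GFP+ and above 0 in GFP- cells without passing that test.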

How the data were processed

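Thyroid cells of H2B-GFP mice, sorted by GFP, were sequenced as 3′ messenger libraries (QuantSeq), in which the reads of a transcript come from its 3′ end. The authors deposited raw read counts per Ensembl gene for each library, made on mm9 with bcl2fastq named per the submitters' processing notes, without versions; the aligner and counter are not given in the sources used here. Of 47643 gene rows, 47224 matched a symbol, and 5 summary rows stayed out of the totals. No 2 files were identical among 18 pairs of replicates, and their counts differed by at least 1.56 times the sampling noise (chi-square per degree of freedom).

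The 22 thyroid libraries entered 1 edgeR 4.0.16 fit (R 4.3.3) of 6 groups, with TMM scaling, a robust quasi-likelihood test and Benjamini-Hochberg adjustment at 0.05 over 1900 genes. The filter was filterByExpr, which asked for 15 reads in total and, in enough libraries, the CPM of 10 reads at the median library size. On simulated counts the edgeR test recovered 6.2% of 2-fold, 61.2% of 4-fold, 86% of 8-fold and 100% of 16-fold changes. It called 0% of unchanged genes. Changes of 2-fold would thus mostly go uncalled. The simulated counts were drawn from the fitted model itself, with replicates of a group at the same expected level. These rates therefore do not carry over to genes whose replicates lie far apart. In the data Lgals7, at a log2 fold change of 8.35, was not called by the edgeR test (adjusted p = 0.615). Standard errors were derived from the F statistic of the edgeR test, whose prior degrees of freedom were infinite at the median gene. CPM values in the text are reads scaled to a common total of reads in genes, without TMM. The TMM factor was 10.5 in 6-month GFP+ replicate 4 and 0.687 to 0.873 in the other 6 GFP+ libraries, and ribosomal RNA took 26.3% to 44.8% of the reads in genes of the 7. Counting intervals are exact binomial at 95%, and a count of 0 allows up to 3 reads. Both rest on pooled reads where ages are compared and leave out the spread between libraries.

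The libraries, lists and genes were chosen with earlier results of these data known. Genes named were those called with ages apart over libraries of at least 10000 reads, filled to 10 in each direction by the lowest p at a mean log2 CPM of at least 4, then up to 4 called members per list or the 2 most abundant where none was called, a small set of markers, and genes marked as outside the rule. Alternatives were DESeq2 1.42.0, other scalings and filters, other sets of libraries, a replicate block and leaving out each replicate. The samples were not treated as paired, because the labels do not tie equal replicate numbers, at 2 ages or in 2 fractions, to each other. Values of some list members are not reported here.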

Additional observations from a re-analysis of the deposited data

Results flagged for a closer look

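In GFP+ cells at 6 months, 6 of 58 tested genes had 1 library far from the other 3. The usual rate of about 1 in 20 by chance does not hold for counts this low: 4 of the 6 rest on other libraries at 0 and 2 on the library of 507 reads. Replicate 1 alone held reads of Aqp3 (23.51 CPM) and of Krt4 (23.51 CPM), with the other 3 libraries at 0. Replicate 2 alone held reads of Bpifa1 (13.1 CPM) and of Krt13 (91.73 CPM). Calca lay at 1972 CPM in replicate 4, which is 1 read of 507, with the next library at 127.9 CPM. Dsp had no read in replicate 4, with the next library at 47.02 CPM.

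The change between 9 and 6 months differed between GFP+ and GFP- cells by the interaction test of edgeR in 3 genes: by 4.98 for Calml3, 4.49 for Cbr2 and −6.58 for Myh11 on the log2 scale. Without 9-month GFP+ replicate 1 the interaction test called 1 gene.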

How the results depend on the processing

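The count of 9 genes called in GFP+ cells, all higher at 9 months, was 1 with DESeq2, 2 with scaling by library size alone (Adh7 higher, Tg lower), 16 with no filter and 2 with the stricter filter (both lower). It was 4 in the fit of the compared groups alone (all lower), where, as with the stricter filter, none of the 9 genes was tested, and 2 without libraries under 10000 reads. An alternative added after seeing the data, the compared groups alone without 6-month replicate 4, called 1 gene, Tg. The count was 9 with DESeq2 size factors and without ribosomal RNA, 7 with TMMwsp and 8 with all 28 libraries. Leaving out 1 replicate gave 2 to 25. In GFP- cells, where the count was 0, it was 27 by library size alone, 6 with the stricter filter, 48 without libraries under 10000 reads and 0 to 10 with 1 replicate left out. The interaction count of 3 was 0 with DESeq2, 0 with no filter, 6 in the compared groups alone, 14 without libraries under 10000 reads (all lower, against 2 higher and 1 lower) and 0 to 4 with 1 replicate left out. The causes were not tested.

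With the replicate number as a block, 10 genes were called in GFP+ cells, 6 of them among the 9, and 0 in the interaction. Equal numbers at the 2 ages did not deviate together (correlations −0.077, 0.054 and −0.036 in GFP+ and −0.051, −0.125 and 0.06 in GFP- cells). From few and partly shallow libraries, these values cannot show whether equal numbers shared a batch, and the labels do not say. Libraries of 1 age and number in the GFP+ and GFP- fractions correlated at 0.053, 0.074, 0.351 and −0.089 at 6 months and at 0.102, 0.044 and 0.134 at 9 months, not over 0.1 in every pair, and were fitted as independent. With age and number together as a block, an alternative added after seeing the data, the interaction called 0 genes (31 at an unadjusted p under 0.05).

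Signs reversed in 11 named genes, none of them called, if Bpifa1 is counted, whose value only reached 0. Cdkn1a was at 0.051 with DESeq2, 0.018 with its size factors, 0.129 with no filter, 0.1 with the replicate block and 0.032 without ribosomal RNA. Il6 was at 0.089, 0.004, 0.139, 0.056 and 0.003 under the same 5. With TMMwsp, library size alone, the compared groups alone, without libraries under 10000 reads and in the added alternative, Col1a1 was at −0.032, −0.114, −0.093, −0.141 and −0.163, Col3a1 at −0.021, −0.182, −0.103, −0.219 and −0.239, and mt-Nd2 at −0.012, −0.208, −0.05, −0.345 and −0.373. Col1a1 was at −0.032 with the replicate block as well, and with the stricter filter Col3a1 was at −0.146 and mt-Nd2 at −0.102. Sparc was at 0.055 with no filter. With 1 replicate left out, the values ran from −0.265 to 0.749 for Cdkn1a, −0.365 to 0.599 for Il6, −0.401 to 0.502 for Col1a1, −0.222 to 0.325 for Col3a1, −0.331 to 0.33 for mt-Nd2, −0.431 to 0.319 for Flt1, −0.351 to 0.353 for Sparc, −3.274 to 0.197 for Esm1, −0.544 to 0.005 for Fos, −2.156 to 0 for Bpifa1 and −0.72 to 2.491 for Dsp, which was negative without 9-month replicate 1. Depth limits all of this: 1 read was worth 5.11 to 15.4 CPM in the 6 deeper GFP+ libraries and 1972 CPM in the other.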
